A study of Mus musculus with 16 samples.

Results

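Described here are 10 genes of the interleukin-1 family and of the inflammasome in mouse brain 24 h after ischaemic stroke. The members were Il1a, Il1b, Il18, Il1rn, Il1r2, Il1rap, Il1rl1, Casp1, Casp4 and Nlrp3. A member was represented by the probe set whose only gene symbol in the platform annotation was that gene. Of the 10 members 9 had such a probe set, 1 each, among 19938 genes so represented, and Il1rl1, the interleukin-33 receptor gene, was not analysed here.

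Whole brain of male mice 8 weeks of age was profiled on 16 Affymetrix Mouse Gene 1.0 ST arrays in 4 groups of 4. The groups were TNF knockout mice 24 h after permanent middle cerebral artery occlusion (pMCAO), naive TNF knockout mice, C57BL/6 mice 24 h after pMCAO, and naive C57BL/6 mice. Naive animals were not sham-operated, so surgery and occlusion enter a stroke difference jointly. Arrays are numbered within a group, but no label says that each came from its own animal, and p-values may then measure only a technical spread between these samples.

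Interleukin-1 alpha and interleukin-1 beta bind the same receptor, whose accessory chain, encoded by Il1rap, is needed for signalling through Myd88. The receptor antagonist (Il1rn) occupies that receptor without signalling, and the decoy receptor (Il1r2) binds interleukin-1 and has no signalling domain. Inflammasomes are complexes in which a sensor such as Nlrp3 activates caspase-1 (Casp1), which matures interleukin-1 beta and interleukin-18. Mouse Casp4, also called caspase-11, senses bacterial lipopolysaccharide in the cytosol. In injured brain, microglia and infiltrating myeloid cells are known sources of interleukin-1.

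The label was first checked at Tnf. It read 6.60 to 6.99 (log2) after stroke and 6.14 to 6.58 in naive arrays with the TNF knockout label, against 5.28 to 5.68 after stroke and 5.01 to 5.72 in naive C57BL/6 arrays. Tnf was thus higher in every array with the knockout label, which goes against the label, so those groups are called arrays labelled TNF knockout. The files do not tell which part of Tnf its probes cover, and probes outside a deleted part would check nothing. Markers of neurons, astrocytes and oligodendrocytes had array means of 10.6 to 10.9, 9.48 to 9.78 and 9.73 to 10.3, against array medians over all probe sets of 6.01 to 6.05. All values are the log2 probe set summaries the authors deposited. They come without detection p-values, so whether the dim members lay above background is not known here.

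Averaged over both genotypes, 4 of the 9 measured members rose after stroke and 0 fell. They were the decoy receptor gene Il1r2 (1.33-fold), the caspase gene Casp4 (1.31-fold), the antagonist gene Il1rn (1.29-fold) and the cytokine gene Il1a (1.46-fold). Il1b had the highest estimate, 1.64-fold, but spread widely between arrays and missed the threshold. Il18, Casp1 and Nlrp3 had estimates of 1.02-fold to 1.07-fold. Of all 19938 genes 1.78% rose and 1.03% fell in this comparison (limma, adjusted p under 0.05), and the median change was 0.37 on the log2 scale over the 9 members and -0.0025 over all genes. The members were chosen with earlier results of these data known, so these values describe the set and do not test it. At a threshold of 0.01, 1 of 9 members (Il1r2) remained, against 1.09% of all genes. The mean values of the 4 genes that rose were among the dimmest 33.3% of all genes, so a filter on dim genes at that level removes them from the test.

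For these 4 members the 250 bases before the first-listed RefSeq gene start (GRCm38.p6) are shown, 5′ to 3′ on the strand of the gene. The 4 are shown because each passed the threshold over both genotypes, and whether they changed jointly was not tested. Capitals mark matches on either strand to the motifs searched. The motifs were AP-1 (TGANTCA), the gamma-activated site or GAS (TTCNNNGAA), the interferon-stimulated response element or ISRE, and the NF-kB consensus. The windows are chr1:40085843-40086092 (+) for Il1r2, chr2:24336610-24336859 (+) for Il1rn, chr2:129309973-129310222 (-) for Il1a and chr9:5308599-5308848 (+) for Casp4.
Il1r2: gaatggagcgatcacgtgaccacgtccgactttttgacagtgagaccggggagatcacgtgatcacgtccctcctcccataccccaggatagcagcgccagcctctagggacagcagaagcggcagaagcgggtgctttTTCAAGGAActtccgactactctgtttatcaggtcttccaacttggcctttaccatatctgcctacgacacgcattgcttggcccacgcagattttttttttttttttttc
Il1rn: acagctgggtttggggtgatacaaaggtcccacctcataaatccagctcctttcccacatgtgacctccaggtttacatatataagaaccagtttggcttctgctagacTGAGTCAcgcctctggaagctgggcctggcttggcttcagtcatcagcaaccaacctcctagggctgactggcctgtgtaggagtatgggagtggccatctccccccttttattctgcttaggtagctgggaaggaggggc
Il1a: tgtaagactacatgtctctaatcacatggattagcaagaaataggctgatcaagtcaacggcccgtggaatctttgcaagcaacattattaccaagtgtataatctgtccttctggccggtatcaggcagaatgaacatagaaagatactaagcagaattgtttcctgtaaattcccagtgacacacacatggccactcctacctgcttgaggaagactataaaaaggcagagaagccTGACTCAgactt
Casp4: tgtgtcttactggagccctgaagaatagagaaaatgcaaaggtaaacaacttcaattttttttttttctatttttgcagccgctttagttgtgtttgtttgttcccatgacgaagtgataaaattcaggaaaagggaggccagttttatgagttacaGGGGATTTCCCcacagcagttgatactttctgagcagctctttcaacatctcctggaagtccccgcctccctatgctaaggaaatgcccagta
In the windows shown, Il1rn and Il1a each hold 1 AP-1 match, at -141 to -135 and at -12 to -6 from the start. The Il1rn windows of later starts, chr2:24345041-24345290 and chr2:24345121-24345370, hold no match to the motifs searched. Il1r2 holds 1 GAS match, at -111 to -103. Casp4 holds a pair of NF-kB matches that overlap each other, spanning -93 to -83. Of 32851 such windows in RefSeq, 6.75% hold the AP-1 motif, 7.02% the GAS motif, 2.98% the ISRE motif and 3.9% the NF-kB motif. Over all 13 windows of the 9 measured members, 2 hold AP-1, 1 holds GAS, 0 hold ISRE and 3 hold NF-kB (both overlapping Casp4 windows, and 1 of Nlrp3). A match describes letters in a window and says nothing on binding.

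**Figure D1:**
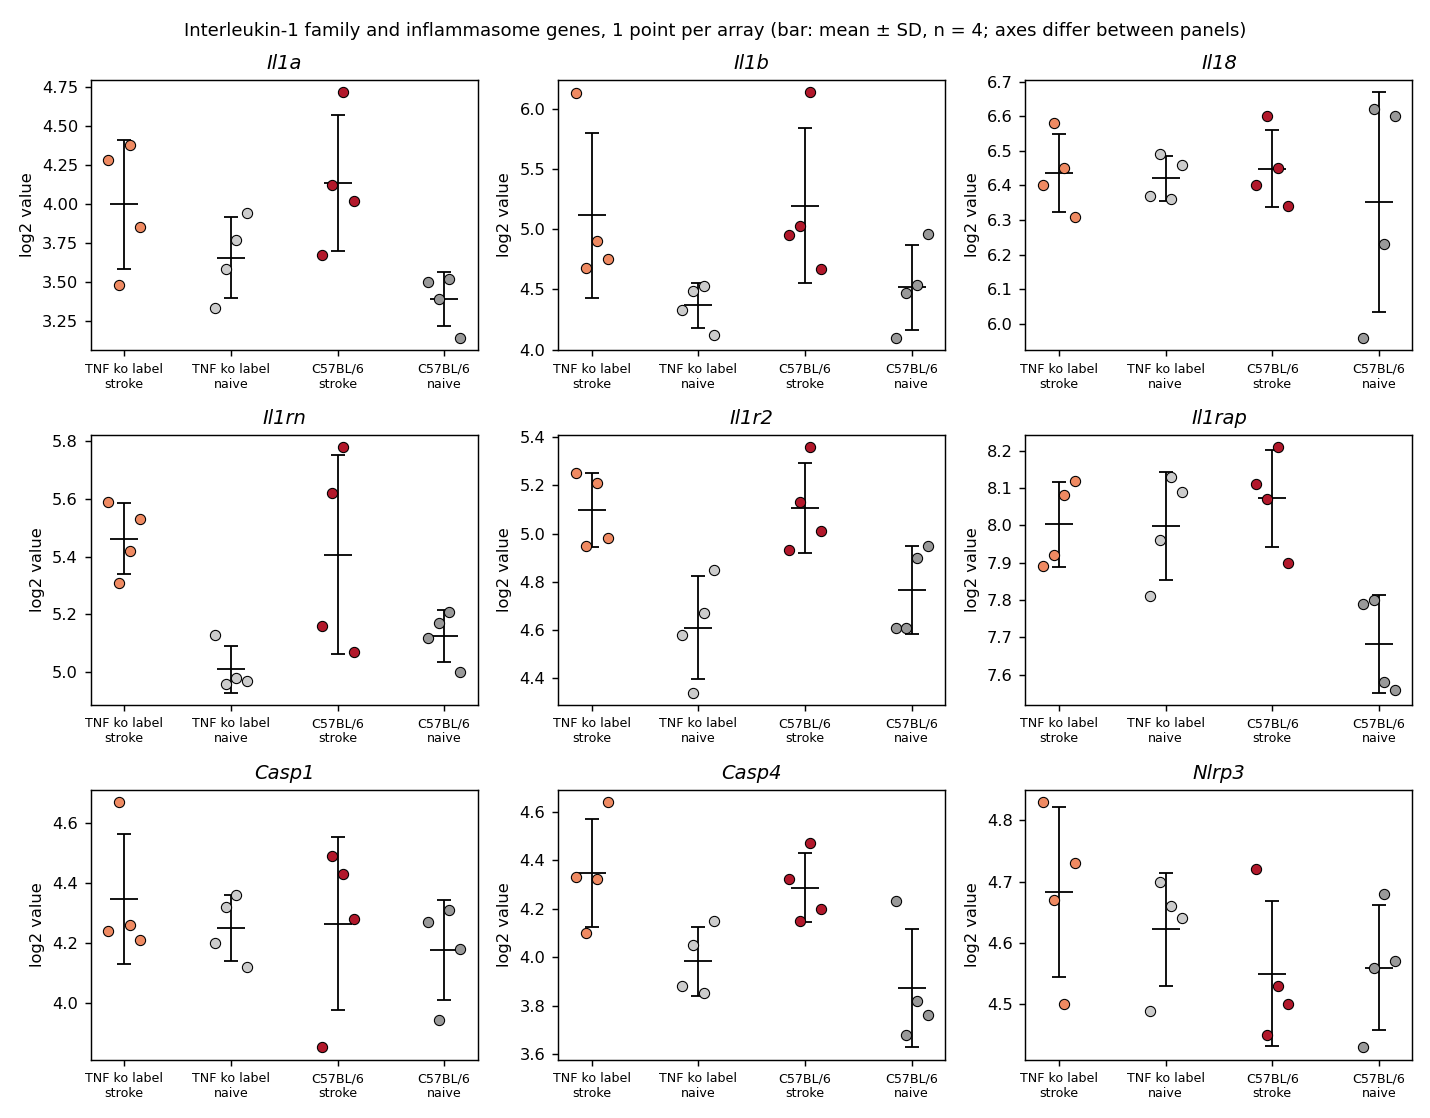
Log2 value of each of the 9 measured members in every array (1 point per array, bar for mean ± SD, n = 4 per group, with a separate vertical axis per gene). In Il1b 1 stroke array per genotype stands apart, at 6.13 (TNF knockout label) and 6.14 (C57BL/6), and in Il1rap the naive C57BL/6 arrays lie lowest, at 7.56 to 7.80.

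Among the ligands, Il1a encodes interleukin-1 alpha, which is released from damaged cells. In arrays labelled TNF knockout it read 4.28, 3.48, 4.38 and 3.85 after stroke, against 3.33, 3.58, 3.77 and 3.94 in naive arrays. In C57BL/6 arrays it read 3.67, 4.12, 4.72 and 4.02 after stroke, against 3.50, 3.39, 3.52 and 3.14 in naive arrays. The groups overlapped under the knockout label and did not overlap in C57BL/6 mice. Over both genotypes Il1a rose by 0.54 ± 0.14 (SE; limma, adjusted p = 0.039). The change was 0.34 ± 0.20 in arrays labelled TNF knockout (adjusted p = 0.71) and 0.75 ± 0.20 in C57BL/6 mice (adjusted p = 0.062). The C57BL/6 change passed in 2 of 8 other settings, which ranged from 0.035 to 0.086. The call over both genotypes is a narrow one. It held in 3 of 16 fits that each left out 1 array, those without naive array 4 or stroke array 2 of the knockout label or without C57BL/6 stroke array 1, and in the other 13 the adjusted p was 0.050 to 0.10. It was also lost with quantile normalization (adjusted p = 0.059), among 7 other settings with adjusted p of 0.022 to 0.095.

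Il1b encodes interleukin-1 beta, which is made as a precursor and cut by caspase-1. Its 4 stroke arrays with the TNF knockout label read 6.13, 4.68, 4.90 and 4.75, and the naive ones read 4.33, 4.49, 4.53 and 4.12. Its C57BL/6 stroke arrays read 4.95, 5.03, 6.14 and 4.67, against 4.10, 4.47, 4.54 and 4.96 in naive arrays. Every stroke array lay above every naive array under the knockout label, and 1 naive C57BL/6 array lay within the stroke range. The difference was 0.75 ± 0.29 in arrays labelled TNF knockout (adjusted p = 0.44), 0.68 ± 0.29 in C57BL/6 mice (adjusted p = 0.24) and 0.71 ± 0.20 over both (adjusted p = 0.068), none past the threshold. Over both genotypes it passed in 2 of 7 other settings.

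In each genotype the stroke array with the highest Il1b also had the highest mean of the 15 measured neutrophil and monocyte markers among stroke arrays. That mean was 4.28 in stroke array 1 of the knockout label and 4.43 in C57BL/6 stroke array 3. Over the other stroke arrays that mean was 4.05 to 4.13 (knockout label) and 3.94 to 4.25 (C57BL/6). In naive arrays it was 3.89 to 3.92 (knockout label) and 3.91 to 4.08 (C57BL/6), and the highest Il1b did not go with the highest mean. Naive C57BL/6 array 4 had the highest Il1b of its group (4.96) and the lowest marker mean (3.91). Naive array 4 of the knockout label had the lowest Il1b of its group (4.12) and the highest marker mean (3.92). Of the 15 markers 2 rose over both genotypes, against 1.78% of all genes, the lectin gene Clec4d (0.75 ± 0.15) and the chemokine receptor gene Cxcr2 (0.71 ± 0.15). Estimates were above 0 for 12 of 15, with a median of 0.21, and 7 of 15 had an unadjusted p under 0.05, against 16.4% of all genes. Among the others were S100a8 at 0.37, Mmp9 and Ccr2 at 0.28, Ly6g at 0.02 and Camp, the lowest, at -0.13. Of the 9 measured microglia markers 1 rose, Fcrls (0.68), and 1 fell, Siglech (by 0.47), over both genotypes, against 1.78% and 1.03% of all genes. Estimates were above 0 for 2 of 9, and 5 of 9 had an unadjusted p under 0.05. Under the knockout label alone 1 of 9 microglia markers fell, Gpr34 by 0.49 (limma, adjusted p = 0.046), and 0 rose. Of all 19938 genes 21 fell and 107 rose there. In C57BL/6 mice 1 of 9 rose, Fcrls by 0.895 (limma, adjusted p = 0.0083), and 1 fell, while 267 of all 19938 genes rose and 67 fell. The microglia list mean was 6.21 to 6.43 after stroke and 6.41 to 6.56 in naive arrays under the knockout label, and 6.38 to 6.74 after stroke and 6.45 to 6.52 in naive arrays of C57BL/6 mice. Of 6 astrocyte markers 1 rose over both genotypes, Gfap (0.77 ± 0.10, adjusted p = 0.00014), against 1.78% of all genes, and Gfap also rose in each genotype. Estimates over both genotypes were above 0 for 3 of 6 astrocyte markers, with a median of 0.007. Of 7 neuron markers 1 fell over both genotypes, Tubb3 (by 0.27, adjusted p = 0.016), against 1.03% of all genes. Estimates were above 0 for 2 of 7 neuron markers, with a median of -0.04. The part of these cell types in the member changes was not tested, and in whole brain a change in the number of cells cannot be told apart from a change in RNA per cell.

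Il18 encodes interleukin-18, another caspase-1 substrate. It lay within 6.31 to 6.58 after stroke and 6.36 to 6.49 in naive arrays labelled TNF knockout. The C57BL/6 arrays lay within 6.34 to 6.60 after stroke and 5.96 to 6.62 in naive arrays, and the groups overlapped in both genotypes. Its difference over both genotypes was 0.06 (95% interval -0.12 to 0.23; adjusted p = 0.81).

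Both members whose products restrain interleukin-1 rose over both genotypes. Il1r2, the decoy receptor gene, read 5.25, 4.95, 5.21 and 4.98 after stroke and 4.58, 4.34, 4.67 and 4.85 in naive arrays under the TNF knockout label. The C57BL/6 arrays read 4.93, 5.13, 5.36 and 5.01 after stroke, against 4.61, 4.61, 4.90 and 4.95 in naive arrays. The groups did not overlap under the knockout label, and in C57BL/6 mice 1 stroke array lay just below the highest naive array. Il1r2 rose by 0.41 ± 0.08 over both genotypes (adjusted p = 0.0088), the smallest p among the members and rank 206 of 19938 genes. It changed by 0.49 ± 0.12 under the knockout label (adjusted p = 0.082) and by 0.34 ± 0.12 in C57BL/6 mice (adjusted p = 0.15). Under the knockout label it passed in 2 of 8 other settings, which ranged from 0.031 to 0.30. The call over both genotypes held in 16 of 16 fits without 1 array.

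Il1rn, the receptor antagonist gene, read 5.59, 5.31, 5.42 and 5.53 after stroke and 5.13, 4.96, 4.98 and 4.97 in naive arrays labelled TNF knockout. In C57BL/6 mice the stroke arrays read 5.16, 5.62, 5.78 and 5.07, against 5.12, 5.17, 5.21 and 5.0 in naive arrays. The knockout label groups lay apart, and in C57BL/6 mice stroke arrays 1 and 4 lay within the naive range. Il1rn rose by 0.37 ± 0.09 over both genotypes (adjusted p = 0.024). Its change was 0.45 ± 0.12 under the knockout label (adjusted p = 0.15) and 0.28 ± 0.12 in C57BL/6 mice (adjusted p = 0.25). Under the knockout label it passed with array weights (0.045) and with the knockout label arrays alone (0.025), among 8 other settings up to 0.29. The call over both genotypes was lost, with adjusted p of 0.051 to 0.055, without naive C57BL/6 array 4, C57BL/6 stroke array 2, or naive array 2 or stroke array 4 of the knockout label.

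Il1rap, the accessory chain gene, was the member past the threshold within a single genotype in the fit of all 16 arrays, while Il1a, Il1r2 and Il1rn passed there in some other settings. In C57BL/6 mice its stroke arrays read 8.11, 8.07, 8.21 and 7.90 and its naive arrays 7.79, 7.80, 7.58 and 7.56, with no overlap. It rose by 0.39 ± 0.09 there, or 1.31-fold (adjusted p = 0.041). The arrays labelled TNF knockout read 7.89, 7.92, 8.08 and 8.12 after stroke, against 7.81, 7.96, 8.13 and 8.09 in naive arrays, and so overlapped almost entirely. Their difference was 0.01 ± 0.09 (adjusted p = 1.00). The C57BL/6 call was lost in 9 of 16 fits without 1 array, with adjusted p up to 0.14. Arrays whose removal ended it were all 4 naive C57BL/6 arrays, C57BL/6 stroke arrays 1 to 3, and naive array 2 and stroke array 3 of the knockout label. It was also lost with quantile normalization (adjusted p = 0.058), median centring (0.058), array weights (0.051) and a fit of C57BL/6 arrays alone (0.11), among 9 other settings with adjusted p of 0.017 to 0.11.

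**Figure D2:**
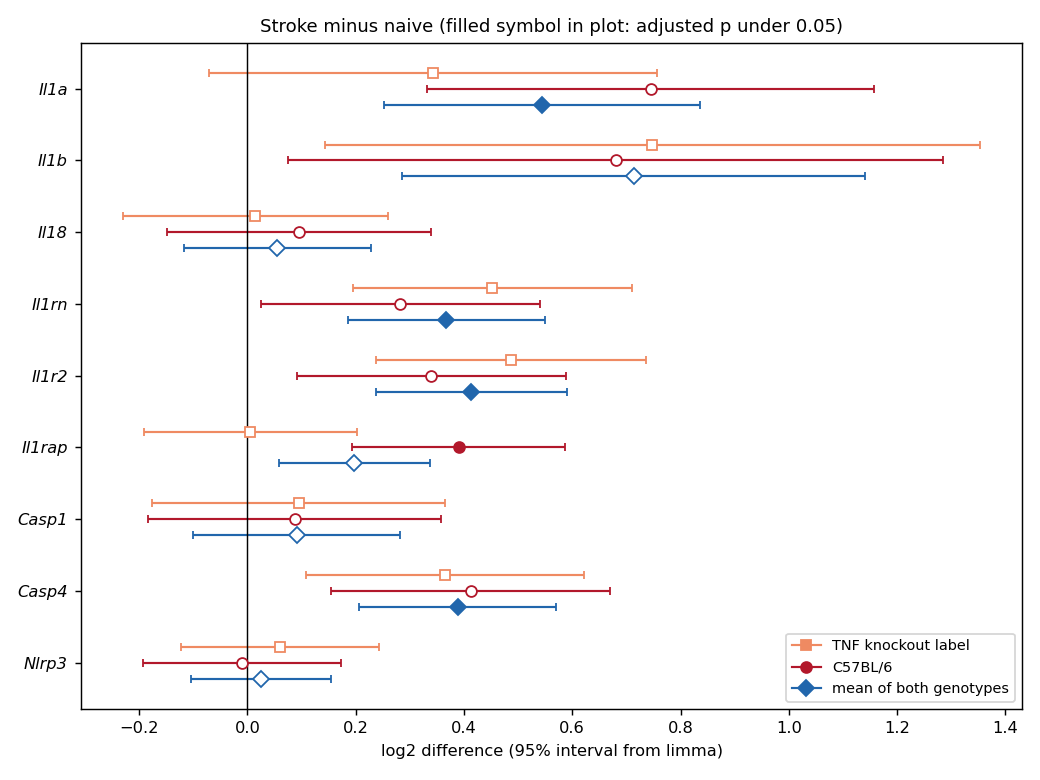
Stroke minus naive in log2 units with 95% intervals from limma for each member, in arrays labelled TNF knockout (squares), in C57BL/6 mice (circles) and averaged over both genotypes (diamonds). Filled symbols passed the threshold: Il1rap in C57BL/6 mice (0.39), and Il1a, Il1rn, Il1r2 and Casp4 over both genotypes (0.37 to 0.54).

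Of the inflammasome members, Casp4 rose and Casp1 and Nlrp3 did not pass the test. Casp4 read 4.33, 4.10, 4.32 and 4.64 after stroke and 3.88, 4.05, 3.85 and 4.15 in naive arrays labelled TNF knockout. The C57BL/6 arrays read 4.32, 4.15, 4.47 and 4.20 after stroke, against 4.23, 3.68, 3.82 and 3.76 in naive arrays. In each genotype 1 naive array lay within the stroke range. Casp4 rose by 0.39 ± 0.09 over both genotypes (adjusted p = 0.017), a call that held in 16 of 16 fits without 1 array and in 6 of 7 other settings. It was lost in a model that also held the sample name prefix (adjusted p = 0.065). The change was 0.36 ± 0.12 under the knockout label (adjusted p = 0.32) and 0.41 ± 0.12 in C57BL/6 mice (adjusted p = 0.099). The C57BL/6 change of Casp4 passed in 1 of 16 fits without 1 array, that without naive C57BL/6 array 1 (limma, adjusted p = 0.038). It passed in 0 of 8 other settings.

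Casp1, which lies next to Casp4 on chromosome 9 and encodes the protease of the classical inflammasome, lay within 4.21 to 4.67 after stroke and 4.12 to 4.36 in naive arrays labelled TNF knockout. In C57BL/6 mice it lay within 3.85 to 4.49 after stroke and 3.94 to 4.31 in naive arrays. Its difference over both genotypes was 0.09 (95% interval -0.10 to 0.28; adjusted p = 0.68). Nlrp3, the sensor gene, lay within 4.50 to 4.83 after stroke and 4.49 to 4.70 in naive arrays labelled TNF knockout. It lay within 4.45 to 4.72 after stroke and 4.43 to 4.68 in naive C57BL/6 arrays, and its difference over both genotypes was 0.03 (95% interval -0.10 to 0.15; adjusted p = 0.89). Stroke and naive arrays overlapped in both genes in both genotypes.

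**Figure D3:**
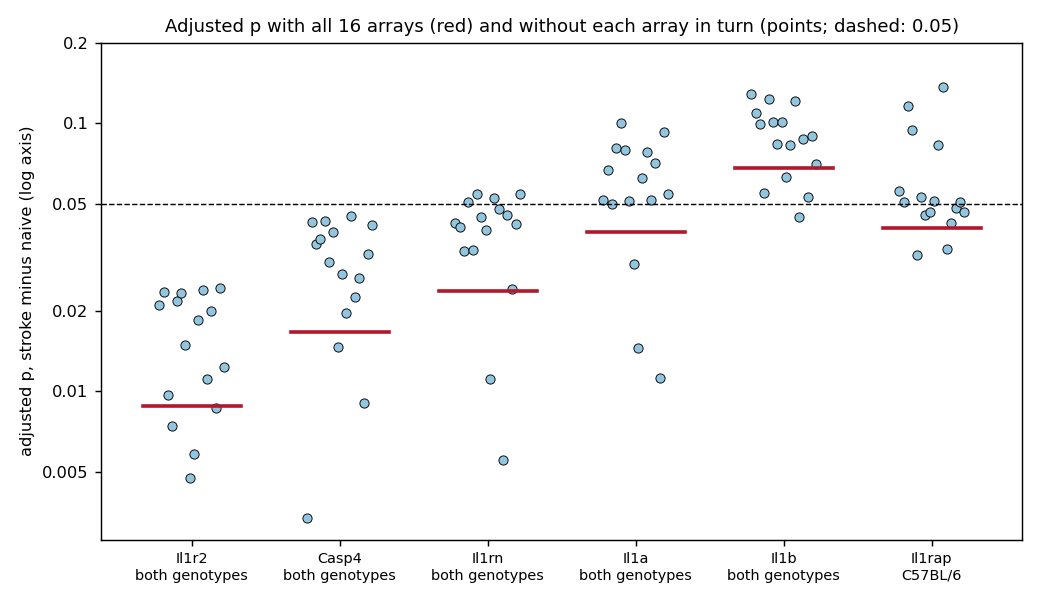
Adjusted p of stroke minus naive on a log axis, with all 16 arrays (red line) and without each array in turn (points), for 5 members over both genotypes and for Il1rap in C57BL/6 mice. The points of Il1r2 (up to 0.024) and Casp4 (up to 0.045) lie below the dashed threshold, and 13 of 16 points of Il1a lie above it.

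Within single genotypes the counts were lower. In arrays labelled TNF knockout 0 of 9 members passed limma's threshold, where 0.537% of all genes rose, and 4 of 9 had an unadjusted p under 0.05, against 8.39% of all genes. In 3 of 9 members (Il1b, Il1rn, Il1r2) every stroke array lay above every naive array, against 2.8% of all genes. Among C57BL/6 arrays 1 of 9 members rose, against 1.34% of all genes, and 6 of 9 had an unadjusted p under 0.05, against 17.1% of all genes. In Il1a and Il1rap every stroke array lay above every naive array there, against 5.03% of all genes. At a threshold of 0.01 neither genotype had a member past it, against 0.271% of all genes under the knockout label and 0.381% in C57BL/6 mice.

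Arrays labelled TNF knockout carry 2 sample name prefixes, KL76 (naive arrays 1 to 3, stroke array 1) and KL82 (naive array 4, stroke arrays 2 to 4). What a prefix stands for is unknown here. The stroke difference within KL76 and within KL82 was 0.72 and 0.20 for Il1r2, 0.57 and 0.45 for Il1rn, 0.40 and 0.20 for Casp4, 1.68 and 0.66 for Il1b, 0.72 and -0.04 for Il1a, and -0.08 and -0.05 for Il1rap. Each of these rests on 1 array on one side. In a model that also held the prefix, the calls over both genotypes remained for Il1r2 (0.40, adjusted p = 0.032) and Il1rn (0.36, adjusted p = 0.037), among settings that ranged from 0.0043 to 0.032 and from 0.0087 to 0.039. They were lost for Casp4 (change 0.36; other settings from adjusted p = 0.014) and Il1a (0.54, adjusted p = 0.095; other settings from 0.022). Il1b passed in that model (0.92, adjusted p = 0.012) and with array weights (0.71, adjusted p = 0.047), and not in the other 5 settings (up to 0.13).

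The genotype comparison asks whether members differ between arrays labelled TNF knockout and C57BL/6 arrays. All C57BL/6 arrays carry another prefix, KL42, so prefix and genotype cannot be told apart here. In naive mice 0 of 9 members passed limma's threshold, against 0.386% of all genes, and 1 of 9, Il1rap, had an unadjusted p under 0.05, against 16.6% of all genes. Il1rap averaged 8.00 ± 0.14 in naive arrays labelled TNF knockout and 7.68 ± 0.13 in naive C57BL/6 arrays (SD, n = 4 each), a difference of 0.32 ± 0.09 (SE; limma, adjusted p = 0.12) with no overlap, as in 4.5% of all genes. After stroke 0 of 9 members passed, against 0.436% of all genes, and 0 of 9 had an unadjusted p under 0.05, against 11.3% of all genes. There Il1rap averaged 8.00 ± 0.11 under the knockout label and 8.07 ± 0.13 in C57BL/6 mice. After stroke the genotype difference was above 0 for 0 of 5 oligodendrocyte, 0 of 6 endothelial, 1 of 9 microglia and 1 of 6 astrocyte markers. It was above 0 for 4 of 7 neuron and 9 of 15 neutrophil and monocyte markers, and for 9447 of all 19938 genes. In naive mice it was above 0 for 0 of 5 oligodendrocyte, 3 of 6 endothelial, 5 of 9 microglia and 3 of 6 astrocyte markers. The naive counts were 5 of 7 for neuron and 5 of 15 for neutrophil and monocyte markers, and 9729 of all 19938 genes. Cnp (oligodendrocytes, -0.46) and Cldn5 (endothelial cells, -0.535) passed the threshold after stroke. In naive mice Cnp differed by -0.275 and Cldn5 by -0.13, neither past the threshold. The part of these cell types in the genotype comparison was not tested.

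The stroke changes did not differ between genotypes past limma's threshold for any of the 9 members, nor for any gene (0%). At an unadjusted p under 0.05 there was 1 member, Il1rap, and 7.42% of all genes. The difference for Il1rap was -0.39 (95% interval -0.66 to -0.11; adjusted p = 0.56). For Il1b it was 0.07 (95% interval -0.79 to 0.92) and for Il1a -0.40 (95% interval -0.99 to 0.18), so differences of 1.5-fold and more in either direction lie within the interval for Il1b. The narrowest interval was that of Nlrp3, -0.19 to 0.33.

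**Figure D4:**
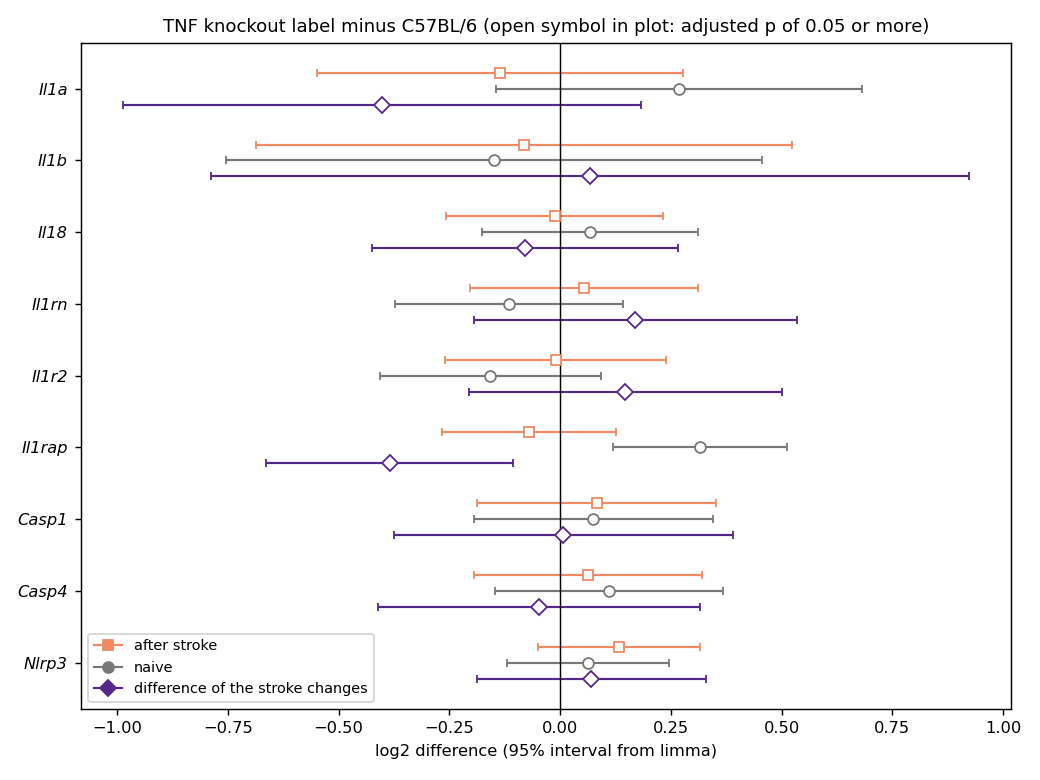
TNF knockout label minus C57BL/6 in log2 units with 95% intervals from limma, after stroke (squares), in naive mice (circles), and for the difference of the stroke changes (diamonds). No symbol is filled, since no member passed the threshold, and the intervals of Il1rap in naive mice (0.32) and for the difference of the stroke changes (-0.39) do not include 0.

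Other genes of the pathway, from lists made by function, were mostly not past the threshold. Of the receptor adaptors and kinases 1 of 11 measured genes rose over both genotypes and 0 fell, against 1.78% and 1.03% of all genes, and 3 of 11 had an unadjusted p under 0.05, against 16.4%. It was Myd88, which couples the interleukin-1 and Toll-like receptors to their kinases. Myd88 averaged 6.81 ± 0.14 after stroke and 6.26 ± 0.03 in naive arrays labelled TNF knockout, and 6.80 ± 0.18 after stroke and 6.13 ± 0.11 in naive C57BL/6 arrays (SD, n = 4 each). It rose by 0.61 ± 0.07 over both genotypes (limma, adjusted p = 1.1e-05), by 0.55 ± 0.09 under the knockout label (adjusted p = 0.0041) and by 0.68 ± 0.09 in C57BL/6 mice (adjusted p = 0.00051). The list's median change was 0.01.

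Of the other family ligands and binding proteins 0 of 7 passed over both genotypes (1 of 7 at an unadjusted p under 0.05, against 16.4% of all genes), with a median of 0.02. The cytokine gene listed as Il1f9, now Il36g, differed by 0.43 ± 0.14 (limma, adjusted p = 0.11). Of the other receptors of the family 0 of 6 passed (1 of 6 unadjusted), with a median of 0.03, and Il18rap, a chain of the interleukin-18 receptor, differed by 0.19 ± 0.09 (adjusted p = 0.30). Of the other inflammasome genes 0 of 18 passed (2 of 18 unadjusted), with a median of 0.01. The caspase genes Casp8 (0.31 ± 0.08, adjusted p = 0.058) and Casp12 (0.32 ± 0.09, adjusted p = 0.059) came closest. The signalling receptor gene Il1r1, the kinase gene Irak4 and Naip1 were not analysed here.

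**Figure D5:**
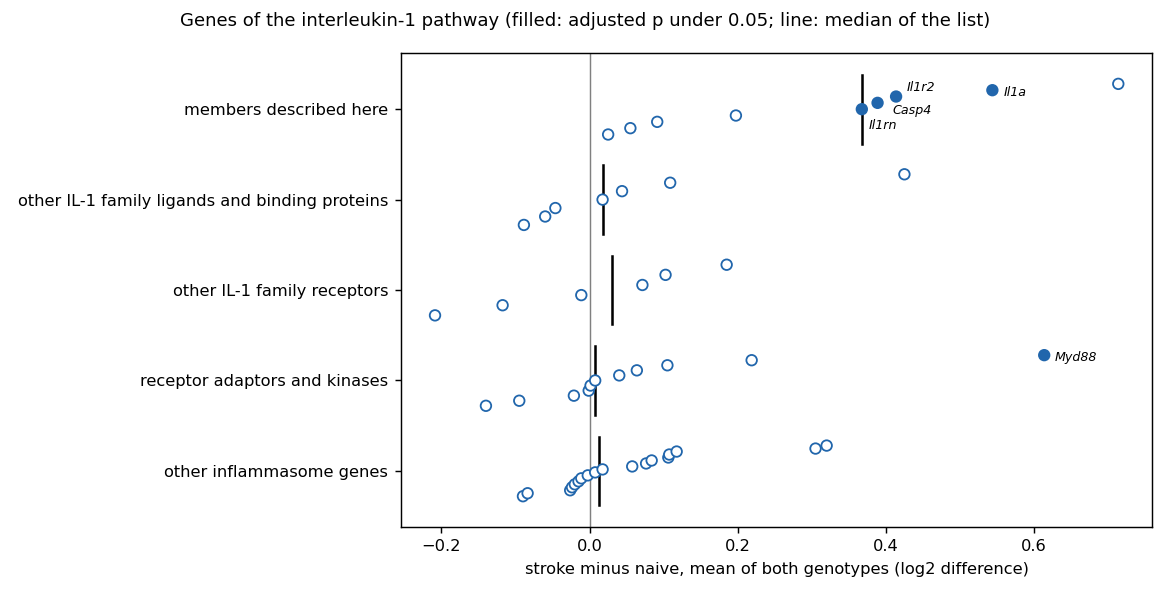
Stroke minus naive averaged over both genotypes (log2 difference, 1 point per gene), for the 9 measured members and 4 lists of other genes of the pathway, with the median of each as a line. The medians of the other lists lie at 0.01 to 0.03 against 0.37 for the members, and Myd88 (0.61) is the filled point outside the members. Members and lists were chosen with earlier results of these data known, so this gap is a description and not a test.

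Genes with the profile most like each called member were sought among all 19938 genes with the members left out. Likeness was the root mean square difference over 16 arrays of values centred on each gene's mean. Nearest to Il1a were the leukocyte genes Ptprc, Lcp1 and Plek, at 0.21 to 0.22 against an own spread of 0.41 in Il1a. Nearest to Il1rn were the cystine transporter gene Slc7a11, the transcription factor gene Cebpd and the interferon signalling gene Irf9, at 0.12 to 0.13 against 0.25. Nearest to Il1r2 were Sdc4, Slc39a1 and Parp3, at about 0.15 against 0.27. Nearest to Casp4 was Casp12, another caspase gene, at 0.15 against 0.26, followed by Ddx21 and Crot. Nearest to Il1rap were Pot1a, the sheddase gene Adam10 and Ncoa4, at 0.07 against 0.19. The likeness describes these arrays and was not tested.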

How the data were processed

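Whole-brain RNA was profiled on 16 arrays, after Trizol extraction, per the labels' protocols. RMA, GCRMA, GCOS and Partek are named in the submitters' processing notes, with no version or order. On the log2 scale, the deposited probe set values span 1.42 to 14.53, with near-equal medians over the arrays. The 4 arrays in a group limit the precision.

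Of 28944 probe sets 21789 had 1 gene symbol, 1621 several and 5534 none, which gave 19938 genes (the highest mean of several probe sets). All 16 arrays entered 1 limma fit (limma 3.58.1, R 4.3.3) with a mean for each of the 4 groups. Two-sided p-values were adjusted by Benjamini and Hochberg over all genes of a comparison, with a threshold of 0.05. Stroke over both genotypes is the mean of both stroke changes. The comparisons share arrays. The alternatives tried were centring on array medians, quantile normalization, a filter on dim genes, averaged probe sets, trended and robust variances, array weights, only the groups compared, the replicate number or the name prefix as a term, a threshold of 0.01 and leaving out each array. Genes named are the members, Tnf, the nearest 3 non-member profiles of each member called after stroke, pathway genes that passed or had the smallest p, and markers. Markers and the profiles nearest to uncalled members were named after their values were seen. The members and lists were chosen with earlier results of these data known. The fit was tested on simulated data. Promoter windows and gene names came from RefSeq (GRCm38.p6).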

Additional observations from a re-analysis of the deposited data

Results flagged for a closer look

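In 3 of 36 gene and group combinations the highest array lay far from the other 3, by Dixon's criterion for 4 values, which chance meets in about 1 of 20 groups. Il1b read 6.13 in stroke array 1 labelled TNF knockout, against 4.68 to 4.90 in the others of that group. Casp1 read 4.67 in stroke array 2 labelled TNF knockout, against 4.21 to 4.26 in the others. Il1rn read 5.13 in naive array 1 labelled TNF knockout, against 4.96 to 4.98 in the others. The cause was not tested in any of them.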

How the results depend on the processing

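The 4 calls over both genotypes and that of Il1rap in C57BL/6 mice kept their direction in every alternative that could give a value. The count of members called over both genotypes was 0 without the dimmest 33.3% of genes, which removes all 4 by construction. It was 1 at a threshold of 0.01, 5 with array weights (Il1b added), 3 with quantile normalization (Il1a lost), and 2 to 4 without 1 array. With the prefix it was also 3, but with Casp4 and Il1a lost and Il1b added. In C57BL/6 mice it was 0 with quantile normalization, median centring, array weights, only the groups compared or a threshold of 0.01, 2 with trended and robust variances (Il1a added), and 0 to 2 without 1 array. Under the knockout label it was 2 with array weights (Il1r2 and Il1rn), 1 with only the groups compared (Il1rn), and 0 to 1 without 1 array.

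No label says what a shared replicate number stands for. Over the 6 pairs of groups, same-numbered arrays had deviations from the group means that correlated at -0.07 to 0.34, and in 0 of 6 did every pair exceed 0.1, so the numbers were not taken to pair the samples. Among the 4 arrays of the other group, an array correlated best with its own number in 14 of 24 cases, where chance gives about 1 of 4. This is a hint of pairing from the data and not the design. Stroke and naive arrays correlated at 0.04 to 0.34 under the knockout label (2 of 4 best) and at -0.07 to 0.18 in C57BL/6 mice (1 of 4), and C57BL/6 stroke with naive knockout label arrays at 0.05 to 0.25 (4 of 4). With the replicate block 2 members were called in C57BL/6 mice (Il1a, adjusted p = 0.035, beside Il1rap) and 1 under the knockout label (Il1r2, adjusted p = 0.042). Genes called under that block were 559 in C57BL/6 mice, 141 between genotypes in naive mice, and 1 for the difference of the stroke changes.

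Genes called over all genes moved as follows. In C57BL/6 mice 334 became 536 without dim genes, 516 with trended and robust variances, 98 with only the groups compared, 76 at 0.01, and 107 to 639 without 1 array. Under the knockout label 128 became 212 with array weights, 72 with the prefix as a term, 54 at 0.01 and 69 to 145 without 1 array. Over both genotypes 559 became 332 with the prefix, 217 at 0.01 and 369 to 629 without 1 array. Between genotypes in naive mice 77 became 185 without dim genes, 51 with only the groups compared, 20 at 0.01 and 23 to 138 without 1 array. After stroke 87 became 164 without dim genes, 162 with trended and robust variances, 46 with only the groups compared, 36 at 0.01 and 47 to 120 without 1 array. The difference of the stroke changes went to 4 with trended and robust variances, 1 with array weights and 0 to 3 without 1 array.

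Sign changes occurred in 58 refitted values, none of them called. With quantile normalization these were Nlrp3 in C57BL/6 mice (0.028), Il1r2 between genotypes after stroke (0.0017), and the differences of the stroke changes of Il1b (-0.0081), Casp1 (-0.066) and Nlrp3 (-0.0044). With array weights they were Nlrp3 over both genotypes (-0.0047), Il1rn between genotypes after stroke (-0.012), and the differences of Il1b (-0.17) and Casp1 (-0.072). With the prefix they were Il1rap (-0.063) and Il18 (-0.01) under the knockout label. Without 1 array, the stroke changes that crossed 0 ranged over -0.036 to 0.18 (Il18) and -0.067 to 0.03 (Nlrp3) in C57BL/6 mice, over -0.058 to 0.049 (Il1rap), -0.033 to 0.057 (Il18) and -0.013 to 0.14 (Casp1) under the knockout label, and over -0.010 to 0.10 (Il18) and -0.0033 to 0.055 (Nlrp3) over both genotypes. Genotype differences in naive mice ranged over -0.063 to 0.16 (Il18) and -0.0033 to 0.12 (Casp1). Those after stroke ranged over -0.29 to 0.061 (Il1a), -0.42 to 0.23 (Il1b), -0.058 to 0.18 (Il1rn), -0.069 to 0.074 (Il1r2), -0.061 to 0.038 (Il18), -0.055 to 0.16 (Casp1) and -0.035 to 0.15 (Casp4). The differences of the stroke changes ranged over -0.27 to 0.38 (Il1b), -0.17 to 0.051 (Il18), -0.13 to 0.086 (Casp1) and -0.17 to 0.035 (Casp4). The cause was not tested.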

Other observations

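Il1b, whose change after stroke missed the threshold, was likewise set against the genes other than members. Its nearest profiles were the chemokine receptor gene Cxcr2, the chemokine gene Cxcl2 and the mRNA decay gene Zfp36. They lay at 0.30 to 0.35 (root mean square difference over 16 arrays) against an own spread of 0.57 in Il1b. These genes were chosen for their likeness over the same arrays, which fixes how they go with stroke, and no test of them is given.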
